A study of Mus musculus with 8 samples.

Results

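The genes described here encode the proteins of the mitochondrial ribosome, the particle that translates the messenger RNAs of the mitochondrial genome. They were taken as the genes whose symbol begins with Mrpl (large subunit) or Mrps (small subunit) followed by a digit, matched to the array through the RefSeq accession that the scanner files give for each probe. Of 78 such protein-coding genes in RefSeq, 75 had a matched probe, with 107 probes between them, out of 15597 genes and 35078 gene probes on the array. Of the 75 genes, 69 had a probe that rose above background on 4 or more of the 8 arrays and were tested, 43 of them named Mrpl and 26 named Mrps. The 3 genes with no matched probe, Mrpl41, Mrpl44 and Mrps18c, were not analysed here. Mrps36 is among the 75 by its name alone. It was assigned to neither subunit of the mitochondrial ribosome here and was not tested.

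The series profiled the hearts of 8 female C57BL/6 mice, aged 12 weeks and kept on chow in a barrier facility. Lipopolysaccharide (LPS), the outer-membrane glycolipid of Gram-negative bacteria that triggers innate immune signalling, was injected into the peritoneum of 4 mice at 5 mg/kg, and the other 4 received saline by the same route. Hearts were perfused with PBS and removed 8 h after the injection, and pieces of heart were used, so each array holds the mixed RNA of muscle, vessel, connective tissue and resident or recruited blood cells. Each mouse gave 1 one-colour array of spotted long oligonucleotides, hybridised with biotin-labelled RNA that had been amplified from an oligo-dT primer. In such bulk samples, fewer cells of a type and less RNA per cell cannot be told apart.

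The mitochondrial ribosome descends from a bacterial one. Its proteins are all made from nuclear genes, translated in the cytosol and imported, and they assemble on ribosomal RNAs made inside the organelle. The products it makes are core subunits of the respiratory chain and of ATP synthase, which cardiac muscle relies on for its ATP. Some of its proteins have a counterpart in the bacterial ribosome and the others are specific to mitochondria. The large subunit joins amino acids and carries the tunnel through which the new chain leaves, and the small subunit reads the messenger.

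Promoters of genes for mitochondrial proteins are known for matches to the binding motifs of NRF1 and of GABPA, an ETS-family factor, both activators of such genes. RefSeq windows from 250 bases before to 50 bases after an annotated start (build GRCm38.p6) were at hand for 66 of the 75 genes and for 17492 coding genes in all, and 6 motifs were searched on both strands. The ETS core CCGGAAG stood in the windows of 25 of the 66 genes (37.9%), against 12.9% of all coding genes. The NRF1 motif GCGCATGCG stood in 7 (10.6%, against 2.61%) and the YY1 motif AAGATGGCG in 8 (12.1%, against 2.14%). The SP1/KLF motif GGGGCGGGG was found in 13 windows (19.7%, against 17.3%), the E-box CACGTG in 4 (6.06%, against 8.91%) and the TATA box letters TATAAA in 5 (7.58%, against 14.8%). No match of one motif overlapped a match of another among the 77 matches in these windows (0 pairs). A match is a description of the letters and not a site of binding.

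The 150 bases before the annotated start are shown for 5 of these genes: Mrps26, Mrps27 and Mrpl34, which were lower with LPS and hold an ETS match there, Mrpl28, also lower and with none of these motifs in its window, and Mrpl17, which had the highest positive difference and holds an NRF1 match. They lie at chr2:130563607-130563756 on the plus strand (Mrps26), chr13:99344636-99344785 on the plus strand (Mrps27), chr8:71464776-71464925 on the plus strand (Mrpl34), chr17:26123353-26123502 on the plus strand (Mrpl28) and chr7:105811088-105811237 on the minus strand (Mrpl17). Capitals mark the ETS core, which reads CTTCCGG where it lies on the other strand, and in Mrpl17 the NRF1 motif.
Mrps26: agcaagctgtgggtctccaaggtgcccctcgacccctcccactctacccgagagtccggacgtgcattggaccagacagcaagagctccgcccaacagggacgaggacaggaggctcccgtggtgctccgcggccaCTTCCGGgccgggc
Mrps27: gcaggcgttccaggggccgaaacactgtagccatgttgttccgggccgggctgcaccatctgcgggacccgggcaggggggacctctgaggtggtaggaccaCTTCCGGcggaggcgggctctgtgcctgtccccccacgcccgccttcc
Mrpl34: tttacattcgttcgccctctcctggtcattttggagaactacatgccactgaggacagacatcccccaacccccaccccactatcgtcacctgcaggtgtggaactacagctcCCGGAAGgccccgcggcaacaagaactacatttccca
Mrpl28: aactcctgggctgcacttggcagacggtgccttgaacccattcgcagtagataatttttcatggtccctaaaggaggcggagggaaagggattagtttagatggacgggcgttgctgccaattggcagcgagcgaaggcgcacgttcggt
Mrpl17: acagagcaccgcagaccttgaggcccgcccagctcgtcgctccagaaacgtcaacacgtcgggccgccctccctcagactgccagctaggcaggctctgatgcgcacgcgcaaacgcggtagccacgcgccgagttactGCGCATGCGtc
Counting back from the start, the ETS match ended 8 bases before it in Mrps26, 42 bases before it in Mrps27 and 31 bases before it in Mrpl34, and the NRF1 match ended 3 bases before it in Mrpl17. An ETS core was also present in the window of Mrpl18 and in a window at another annotated start of Mrps16. That makes 5 of the 7 genes that were lower with LPS (71.4%), against 37.9% of the 66 genes. Of the other motifs searched, YY1 stood in 1 of the 7 (14.3%, against 12.1% of the 66). NRF1, SP1/KLF, the E-box and the TATA box letters stood in 0 of the 7. Mrpl18, Mrpl47 and Mrps16, which are not shown, held 0 matches of any motif in the 150 bases before their outermost start. A gene counted where any window of its annotated starts held a match, and no difference between these shares was tested. Mrpl17 held an ETS core farther upstream as well, outside the bases shown.

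With LPS, 7 of the 69 tested genes were lower and none was higher at an adjusted p under 0.05 (7 lower, 0 higher, 62 not called). The 7 were Mrpl18, Mrpl28, Mrpl34 and Mrpl47 of the large subunit and Mrps16, Mrps26 and Mrps27 of the small subunit. The adjusted p came from limma's moderated test with Benjamini-Hochberg adjustment over all 12100 genes and unnamed probes tested, and every adjusted p below comes from that fit unless another setting is named. Over all of these, 9.36% were called lower and 9.3% higher, so the 10.1% of mitoribosomal genes called lower is close to the background in that direction. At an unadjusted p under 0.05 there were 18 of the 69 (26.1%, against 32.6% of all features), and Mrpl17 was the sole one among them with a positive difference.

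Small differences below zero were common among the genes. The median log2 difference (LPS minus saline, in normalized log2 intensity) was -0.18, with the middle 50% between -0.37 and -0.06, against -0.04 over all features, whose middle 50% lay between -0.28 and 0.19. Of the 69 genes, 59 (85.5%) had a difference below 0, against 54.7% of all features. Among the 4121 features between the 10th and 90th percentile of the mitoribosomal signal, the median was -0.08, 10.8% were called lower and 11.4% higher. The single differences were modest, from -0.89 to 0.52, and none reached 2-fold (0 of 69), the largest being 1.85-fold. For 59 genes the 95% confidence interval of the difference lay wholly within 2-fold either way, and for the other 10 it reached past it, the farthest bounds being -1.45 and 0.92.

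**Figure D1:**
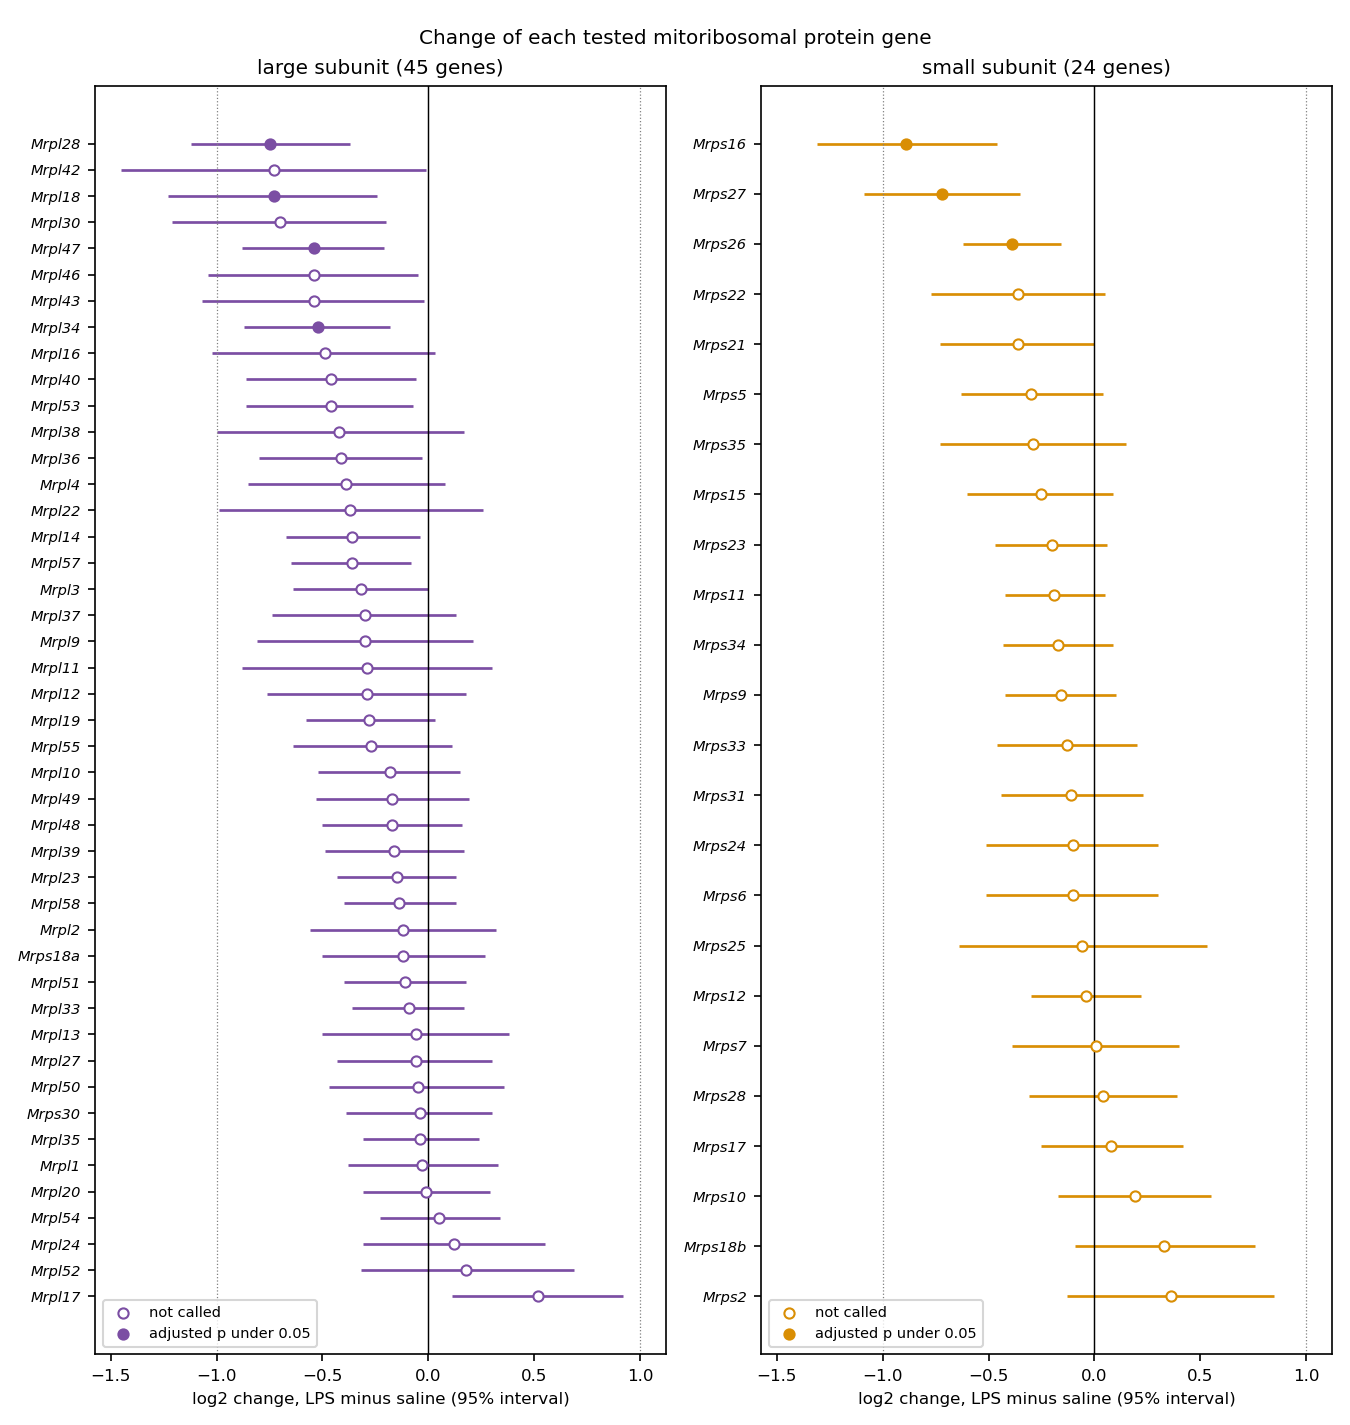
Log2 difference (LPS minus saline) of each tested mitoribosomal gene with its 95% confidence interval, large subunit at left (45 genes) and small subunit at right (24 genes). Filled points mark the 7 genes with an adjusted p under 0.05, all below 0, and dotted lines mark 2-fold either way.

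The 4 LPS and the 4 saline values did not overlap for 8 of the 69 genes (11.6%), against 23.1% of all features. Of these 8, 7 were lower with LPS (Mrpl28, Mrpl47, Mrpl57, Mrps11, Mrps16, Mrps26 and Mrps27) and 1, Mrpl17, was higher. Of the genes that passed the test, 5 had groups that did not overlap, while Mrpl18 and Mrpl34 passed it with 1 saline array at or within the range of the LPS arrays.

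Among the small-subunit genes, Mrps16 had the largest difference. Mrps16 is the counterpart of bacterial protein S16, and inherited loss of it in humans impairs the respiratory chain. Its normalized log2 intensity was 9.24, 9.11, 9.59 and 9.06 in LPS hearts 1 to 4, and saline hearts 1 to 4 gave 10.34, 10.53, 9.80 and 9.88. All LPS values lay below all saline values, with means of 9.25 ± 0.24 and 10.14 ± 0.36 (SD, n = 4 each). The log2 difference was -0.89 with a standard error of 0.19 (adjusted p = 0.0105), and the spread within saline came from arrays 1 and 2 lying above arrays 3 and 4.

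Mrps27 encodes a mitochondria-specific protein with pentatricopeptide repeats, a fold that binds RNA. Its values were 8.27, 8.39, 7.65 and 8.03 with LPS and 8.76, 8.85, 8.64 and 8.96 with saline, a log2 difference of -0.72 (SE 0.17, adjusted p = 0.0147). The saline hearts were tightly grouped (SD 0.13) and the LPS hearts less so (SD 0.33), LPS array 3 being the lowest. Mrps26, also specific to mitochondria, changed less but with little scatter. It measured 7.35, 7.46, 7.39 and 7.31 with LPS and 7.80, 7.76, 7.82 and 7.68 with saline (SD 0.06 in both groups). Its log2 difference of -0.39 (SE 0.10) passed the test at an adjusted p of 0.0271, and the groups stood apart on every array. The Mrps26 probe was dim, and the size of its difference depended on the processing. It was -0.47 with a normexp offset of 16, -0.57 with local background subtracted and -0.30 with mean spot brightness. Other called genes moved with mean spot brightness too. Mrpl28 stood at -0.32, Mrps16 at -0.51, Mrpl18 at -0.51 and Mrps27 at -0.52, all smaller than as reported. Mrps27 was then not called (adjusted p = 0.0717 in limma). Mrpl34 and Mrpl47 were larger, at -0.69 and -0.59.

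Of the small subunit 12.5% was called lower, against 9.36% of all features, and the other 21 small-subunit genes did not pass the test. Their median with the called ones included was -0.14, and 18 of 24 were below 0. The highest differences belonged to Mrps2, Mrps18b and Mrps10. None of them passed, and all 3 were below 0 when arrays were instead scaled to the median over all gene probes, which moved the median of all features to -0.31. Mrps2, counterpart of bacterial S2, measured 8.12, 8.15, 8.50 and 8.93 with LPS and 7.77, 8.03, 8.56 and 7.92 with saline, so the groups overlapped (log2 difference 0.36, SE 0.22, adjusted p = 0.288). For Mrps18b, one of several related S18 proteins of the mitoribosome, the difference was 0.33 (SE 0.19, adjusted p = 0.255), with 10.31 to 10.91 on LPS arrays and 9.75 to 10.49 on saline arrays. Mrps10, counterpart of bacterial S10, differed by 0.19 (SE 0.16, adjusted p = 0.459). Its saline array 3, at 9.87, lay above every LPS array. Mrps11, whose bacterial counterpart sits on the platform of the small subunit, had LPS values of 9.15 to 9.26, all under its saline values of 9.30 to 9.52, yet its small difference of -0.19 (SE 0.11) had an adjusted p of 0.245.

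In the large subunit 4 of 45 genes were lower (8.89%, against 9.36% of all features), the median difference was -0.28 and 41 of 45 were below 0. Mrpl28, counterpart of bacterial L28, measured 11.55, 11.30, 11.37 and 10.87 with LPS and 11.84, 12.31, 12.06 and 11.87 with saline. Every LPS heart lay below every saline heart, by a log2 difference of -0.75 (SE 0.17, adjusted p = 0.0134). LPS array 4 was the lowest of the 8. Mrpl47, the counterpart of bacterial L29 beside the exit of the peptide tunnel, measured 8.77, 8.98, 8.96 and 8.97 with LPS and 9.86, 9.20, 9.39 and 9.41 with saline. Its log2 difference was -0.54 (SE 0.15, adjusted p = 0.0302), with the LPS hearts close together and saline array 1 the highest.

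The remaining calls of the large subunit were less clear on the arrays. Mrpl18 is the counterpart of bacterial L18, which holds 5S rRNA in the central protuberance. Its probe measured 9.29, 9.41, 9.67 and 9.42 with LPS and 10.79, 10.32, 9.65 and 9.96 with saline. The log2 difference was -0.73 (SE 0.22, adjusted p = 0.0440), and saline array 3 lay just under LPS array 3. Mrpl34, counterpart of bacterial L34, measured 10.85, 11.11, 11.13 and 10.96 with LPS and 11.56, 11.73, 11.13 and 11.72 with saline. Its log2 difference was -0.52 (SE 0.15, adjusted p = 0.0410), and saline array 3 was again the one within the LPS range.

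**Figure D2:**
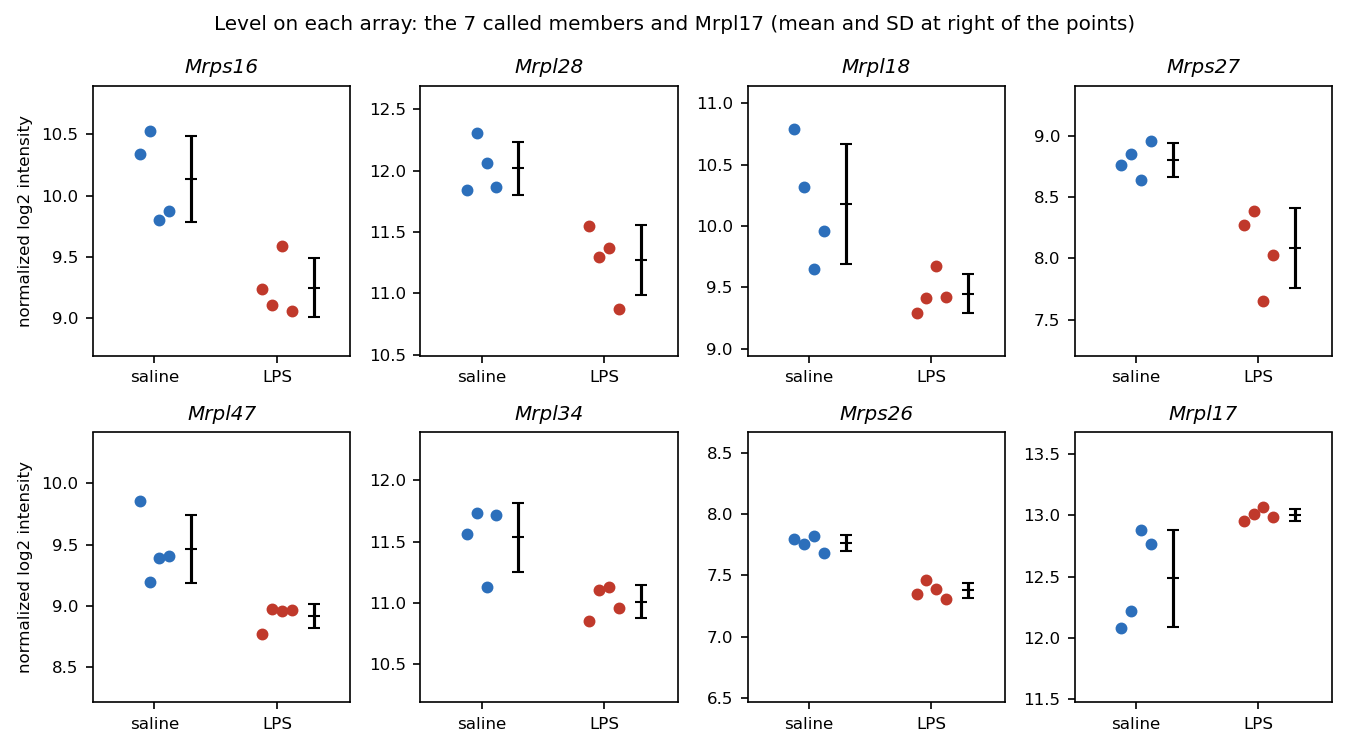
Normalized log2 intensity on each of the 4 saline (blue) and 4 LPS (red) arrays, with the mean and SD at the right of each group, for the 7 mitoribosomal genes that passed the test and for Mrpl17. All panels span the same number of log2 units. The groups overlap for Mrpl18 and touch for Mrpl34, and Mrpl17 is the one gene shown whose LPS values lie above all its saline values.

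Some large-subunit genes had differences as large as called ones with wider errors, Mrpl42 and Mrpl30 having the most negative. Mrpl42, specific to mitochondria, measured 12.37, 11.83, 12.88 and 11.36 with LPS and 13.03, 13.36, 12.70 and 12.28 with saline. The LPS values spread over more than the difference between the means, and the log2 difference of -0.73 (SE 0.32) had an adjusted p of 0.149. Mrpl30, counterpart of bacterial L30, measured 10.57, 10.96, 10.81 and 10.20 with LPS and 11.53, 11.83, 11.07 and 10.93 with saline. Its difference of -0.70 (SE 0.23, adjusted p = 0.0553) came nearest to the threshold of the genes not called. Mrpl43 and Mrpl46, specific to mitochondria, each differed by -0.54 (SE 0.24 and 0.22, adjusted p = 0.143 and 0.123). A dimmer probe of Mrpl43 stood at -0.85 (SE 0.28, adjusted p = 0.0675 with every probe tested). Mrpl57, also specific to mitochondria, had LPS values of 6.68 to 6.98, all under its saline values of 7.02 to 7.41, with a difference of -0.36 (SE 0.13, adjusted p = 0.0759).

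Mrpl17, counterpart of bacterial L17 near the tunnel exit, had the highest positive difference. It measured 12.95, 13.01, 13.07 and 12.99 with LPS and 12.08, 12.22, 12.88 and 12.77 with saline. All LPS hearts lay above all saline hearts and were nearly alike (SD 0.05), while saline arrays 1 and 2 lay well under saline arrays 3 and 4 (SD 0.39). The log2 difference of 0.52 (SE 0.18) did not pass the test (adjusted p = 0.0745). Mrpl52, specific to mitochondria, differed by 0.18 (SE 0.23, adjusted p = 0.614), and by -0.25 with arrays scaled to the median over all gene probes. Its saline values ran from 7.97 to 9.06 and enclosed the LPS values. Mrpl24, the counterpart of bacterial L24 at the tunnel exit, differed by 0.12 (SE 0.19, adjusted p = 0.699), with saline values from 10.86 to 11.81 around the LPS values. It stood at -0.28 under that median scaling.

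Some large-subunit proteins can be read by their place in the particle, and the following genes were picked for that place after their values were seen. They are not full lists of the proteins at each place, so no region as a whole was assessed. Large-subunit genes left out of these picks lay on both sides of 0, such as Mrpl53 (-0.46), Mrpl52 (0.18) and Mrpl54 (0.05). The stalk that recruits translation factors includes Mrpl10, Mrpl11 and Mrpl12. Their log2 differences were -0.18, -0.29 and -0.29 (SE 0.15, 0.26 and 0.21), none of them called. The mitochondria-specific proteins Mrpl38, Mrpl40, Mrpl46 and Mrpl48 lie in the central protuberance with Mrpl18, which was called at -0.73. Theirs were -0.42, -0.46, -0.54 and -0.17 (SE 0.26, 0.18, 0.22 and 0.15), not called. Around the tunnel exit the signs were mixed. Mrpl22 and Mrpl23 differed by -0.37 and -0.15 (SE 0.28 and 0.13) and Mrpl17 and Mrpl24 by 0.52 and 0.12, none of them called, while Mrpl47 was called at -0.54 and Mrpl24 turned to -0.28 with median scaling over all gene probes. Mrpl58, a peptidyl-tRNA hydrolase that frees stalled chains, differed by -0.14 (SE 0.12) and was not called.

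Divided by ancestry, the 41 tested genes with a bacterial counterpart had a median log2 difference of -0.19 with 5 called lower (12.2%). The 28 that are specific to mitochondria had a median of -0.17 with 2 called lower (7.14%). Over all features 9.36% were called lower, and each share of a class rests on few calls. In the large subunit the medians were -0.29 for 27 genes with a counterpart (4 lower, 14.8%) and -0.17 for 18 without (0 lower). Of those 18, 6 had an unadjusted p under 0.05 in limma (33.3%, against 32.6% of all features). In the small subunit the medians were -0.10 for 14 with a counterpart (1 lower, 7.14%) and -0.19 for 10 without (2 lower, 20%). Both kinds of protein, and both subunits, thus had medians below that of all features, and no difference between the classes was tested. Mrps30 and Mrps18a carry small-subunit names but lie in the large subunit, and were counted there. Mrps18a and Mrps18b, relatives of bacterial S18 with names of their own in the mitoribosome, were counted as specific to mitochondria.

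The median over the genes was also followed heart by heart, each gene being set against its own saline mean. It was -0.27, -0.20, -0.16 and -0.14 in LPS hearts 1 to 4, and saline hearts 1 to 4 stood at 0.03, 0.05, -0.07 and -0.04. All 4 LPS hearts lay below all 4 saline hearts, and over all features the same median stayed between -0.06 and 0.02. Of the 69 genes, 56, 56, 49 and 45 were below their saline mean on LPS arrays 1 to 4. On saline arrays 1 to 4 the same counts were 29, 29, 42 and 39. The large-subunit median was -0.24, -0.35, -0.16 and -0.32 on the LPS arrays. The small-subunit median was -0.30, -0.07, -0.20 and 0.01, so that on LPS array 4 the small-subunit genes as a group sat at the saline level.

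**Figure D3:**
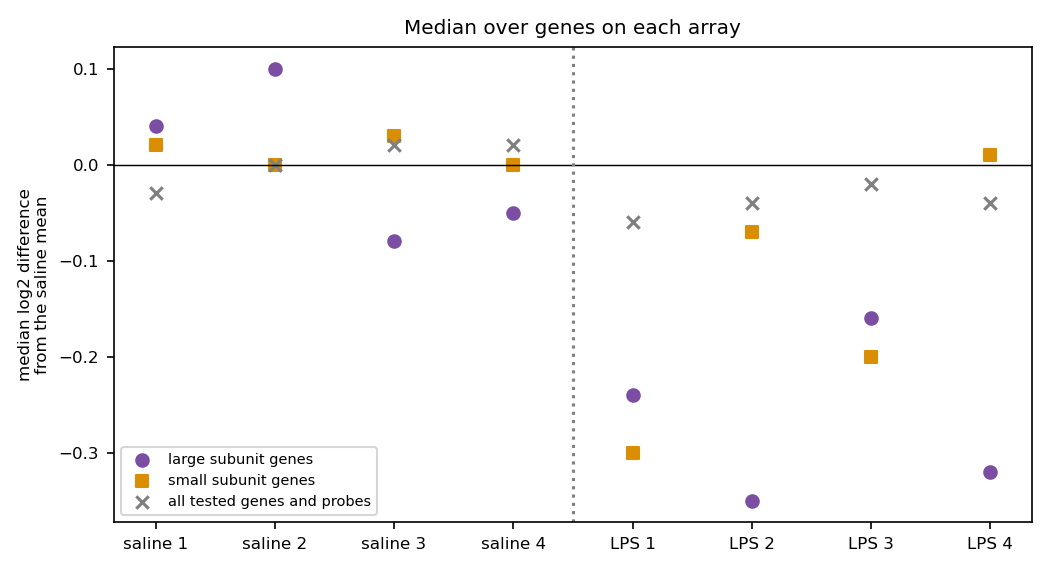
Median log2 difference from the saline mean on each array, over the large-subunit genes (circles), the small-subunit genes (squares) and all tested genes and probes (crosses). Large-subunit medians on the LPS arrays lie between -0.35 and -0.16, and the small-subunit median on LPS array 4 is 0.01.

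Several genes were read by more than 1 probe, which allows a check within the same arrays. Of 20 genes with several probes above background, 19 had all their probes on the same side of 0 and 19 had them within 0.5 log2 units of each other. Mrps12, the counterpart of the S12 protein of the decoding centre, was the exception in sign, with -0.04 for its brightest probe and 0.16 for the other, neither of them called. Mrpl51, specific to mitochondria, was the exception in size. The probe that stood for the gene, its brightest, measured 12.61, 12.71, 12.70 and 13.05 with LPS and 13.04, 12.83, 12.80 and 12.84 with saline (log2 difference -0.11, SE 0.13, adjusted p = 0.587). A dimmer probe of the same gene read 7.18, 7.27, 7.51 and 7.42 with LPS and 8.15, 8.08, 7.84 and 8.08 with saline. That dimmer probe fell by 0.69 on the log2 scale (SE 0.12, adjusted p = 0.00468 with every probe tested), its groups being fully apart. Likewise Mrpl49, specific to mitochondria, had a dimmer probe at -0.48 (adjusted p = 0.0264 with every probe tested) beside 2 others at -0.24 and -0.17 that did not pass, so for Mrpl51 and Mrpl49 the call depends on the probe taken. For Mrpl47, the second kept probe gave -0.31 (adjusted p = 0.0946 with every probe tested), in the direction of the first, but it was above background on none of the LPS arrays.

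A further 6 genes on the array could not be tested. Mrpl15 and Mrpl45 were above background on 1 saline array each, and Mrpl21, Mrpl32, Mrps14 and Mrps36 on no array (0 of 8). Where a probe was not above background, the level of its messenger is not known to be low, since probes differ in how well they capture. RefSeq also lists 6 pseudogenes that carry the name of one of these genes (of Mrpl23, Mrpl27, Mrpl48 and Mrps36). Whether the probes read pseudogene transcripts as well was not tested.

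Arrays differed in scan day, in the series of the slides and in a mark, redip, found in some file names, which no label explains. LPS arrays 2 to 4 and saline arrays 3 and 4 were scanned on the first day. Slides of the first series held LPS arrays 2 to 4 alone, and the second held LPS array 1 with all the saline arrays, so series and treatment largely coincide. Among the arrays of the first scan day they coincide fully. Within the first scan day (3 against 2 arrays) the median log2 difference of the mitoribosomal genes was -0.12 and no gene was called by limma (0 of 69), where 4.54% of the whole table was. With slide series as a block the median was -0.27. As the first series held no saline array, that difference is LPS array 1 against the saline arrays. Within the 4 arrays without the redip mark 0 were called, against 0.653% of the table, and the median was -0.20. Within the 4 arrays with the mark 5 were lower, where 6.59% of the table was, and the median was also -0.20. These 5 were Mrpl22, Mrpl28, Mrpl34, Mrpl36 and Mrps16, of which Mrpl22 and Mrpl36 were not called over all arrays. Mrpl18, Mrpl47, Mrps26 and Mrps27 were not called there (adjusted p from 0.0525 to 0.251 in limma).

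For single genes the sizes under these restrictions were as follows. Within the first scan day the log2 difference was -0.58 for Mrps16 (adjusted p = 0.133), -0.79 for Mrpl28 (0.0744) and -0.78 for Mrps27 (0.117). It was -0.43 for Mrpl47, -0.36 for Mrps26, -0.35 for Mrpl34 and -0.30 for Mrpl18 (adjusted p from 0.0956 to 0.334). With slide series as a block, which sets LPS array 1 alone against the saline arrays, it lay between -0.90 and -0.41 for the 7 genes. The direction was kept by all 7 in both. These values come from arrays already used for the calls, so a kept direction is no separate check. The part of day and series in the differences was not tested beyond these values. Leaving out each array in turn, Mrps16, Mrpl28 and Mrps27 passed the test every time (adjusted p at most 0.0436). Mrpl18, Mrpl34, Mrpl47 and Mrps26 lost the call without 5 or 6 of the 8 arrays, with adjusted p values up to 0.112. For all 4 genes these included LPS arrays 1, 2 and 4 and saline array 1. Mrpl18 and Mrpl34 also lost it without saline array 2 or 4, Mrpl47 without saline array 4 and Mrps26 without saline array 2 or 3.

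**Figure D4:**
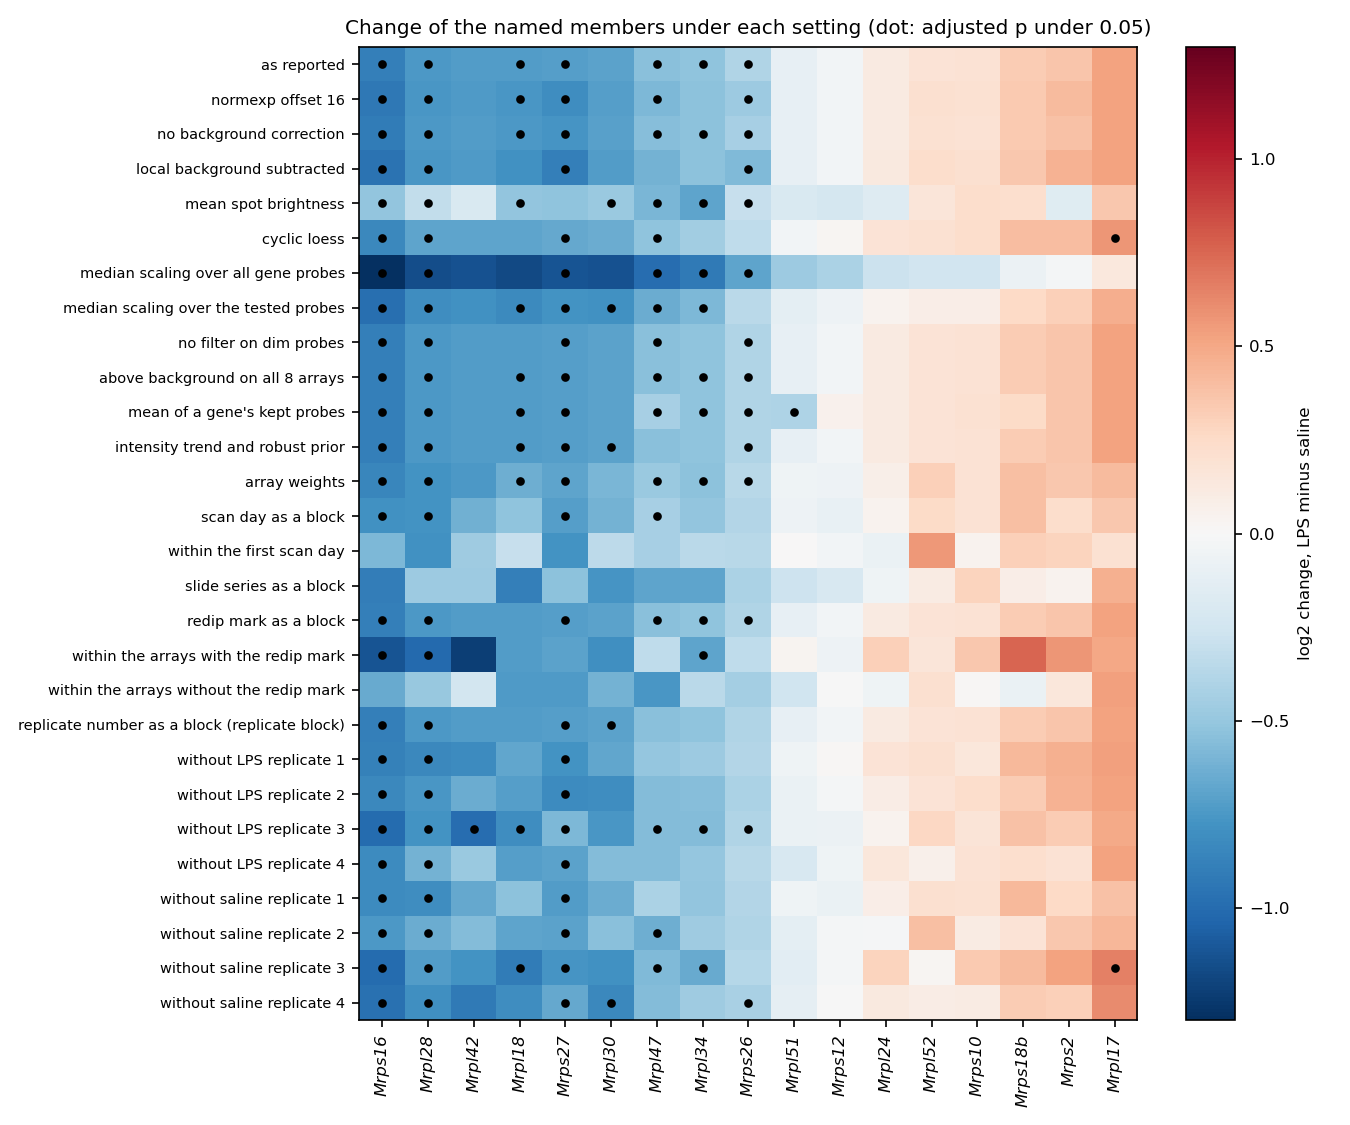
Log2 difference (LPS minus saline, colour) of the 17 named mitoribosomal genes, in columns, as reported and under 27 alternative settings, in lines. Dots mark an adjusted p under 0.05. Mrps16, Mrpl28 and Mrps27 keep the dot without any 1 array, and all dots vanish within the first scan day, with slide series as a block and within the arrays without the redip mark.

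Other genes of mitochondrial gene expression were read from lists of related genes. The shares called in these lists stand beside 9.36% of all features called lower and 9.3% called higher. The 5 mitoribosomal proteins that have no Mrp name (Dap3, Chchd1, Ptcd3, Aurkaip1 and Gadd45gip1) had log2 differences of -0.14, -0.15, -0.35, 0.29 and -0.05, with none called (adjusted p from 0.0972 to 0.799). Of 20 tested factors that assemble the mitoribosome or modify its RNA, 5 were lower (25%) and none higher, and their median was -0.19. The largest difference belonged to Mrm1, a methyltransferase of the large mitochondrial rRNA. It measured 8.60, 9.47, 10.11 and 8.72 with LPS and 10.73, 10.69, 10.70 and 11.11 with saline, a log2 difference of -1.58 (SE 0.30, adjusted p = 0.00557). The LPS hearts were all below the saline hearts but spread widely (SD 0.70). Mterf4, which brings a methyltransferase to the large subunit during assembly, fell by 0.61 (SE 0.12, adjusted p = 0.0075), and Mrm3, a further rRNA methyltransferase, fell by 0.52 (SE 0.12, adjusted p = 0.0119).

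None of the 12 tested translation factors of mitochondria passed, and their median was -0.24. The elongation factor Tufm had the lowest adjusted p of that list, 0.0731, at a log2 difference of -0.48. Of 22 genes of mitochondrial RNA synthesis and processing, 3 were lower (13.6%, against 9.36% of all features) and none higher, with a median of -0.28. Tefm, the elongation factor of the mitochondrial RNA polymerase, fell by 0.76 (SE 0.15, adjusted p = 0.00704). Mterf2, a DNA-binding protein of the same family as Mterf4, fell by 1.00 (SE 0.21, adjusted p = 0.01), and Ssbp1, which coats single-stranded mitochondrial DNA, fell by 0.64 (SE 0.19, adjusted p = 0.0364). None of 13 mitochondrial tRNA synthetases (median -0.10) or 25 protein import genes (median -0.17) was called.

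Among 13 regulators of mitochondrial genes, 3 were lower (23.1%, against 9.36% of all features) and 2 higher (15.4%, against 9.3%). Ppargc1b, a coactivator that drives mitochondrial biogenesis, measured 7.43, 7.65, 8.35 and 7.66 with LPS and 10.02, 9.96, 8.70 and 9.79 with saline, a log2 difference of -1.85 (SE 0.30, adjusted p = 0.0026). Saline array 3 was far below the other saline arrays and still above all LPS arrays. Its relative Ppargc1a fell by 0.73 (SE 0.18, adjusted p = 0.0221) and the orphan nuclear receptor gene Esrrb by 1.09 (SE 0.32, adjusted p = 0.04). Myc, a growth factor-induced activator of ribosome genes, rose by 2.38 (SE 0.23, adjusted p = 0.000153), and the corepressor gene Nrip1 rose by 0.71 (SE 0.17, adjusted p = 0.0156). The genes of NRF1 and GABPA did not pass: Nrf1 differed by 0.36 (adjusted p = 0.136), and the difference of Gabpa was 0.07 with a standard error of 0.26.

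The respiratory chain, whose mitochondria-encoded core the mitoribosome makes, had 6 of 74 tested nuclear genes lower (8.11%, against 9.36% of all features) and 0 higher. Its median was -0.24, with saturated spots in 10 of the 74 genes. The cytosolic ribosome had 1 of 68 lower (Rpl41, 1.47%), 0 higher and a median of -0.06. These lists share their arrays with the mitoribosomal genes, and no difference between the lists was tested.

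**Figure D5:**
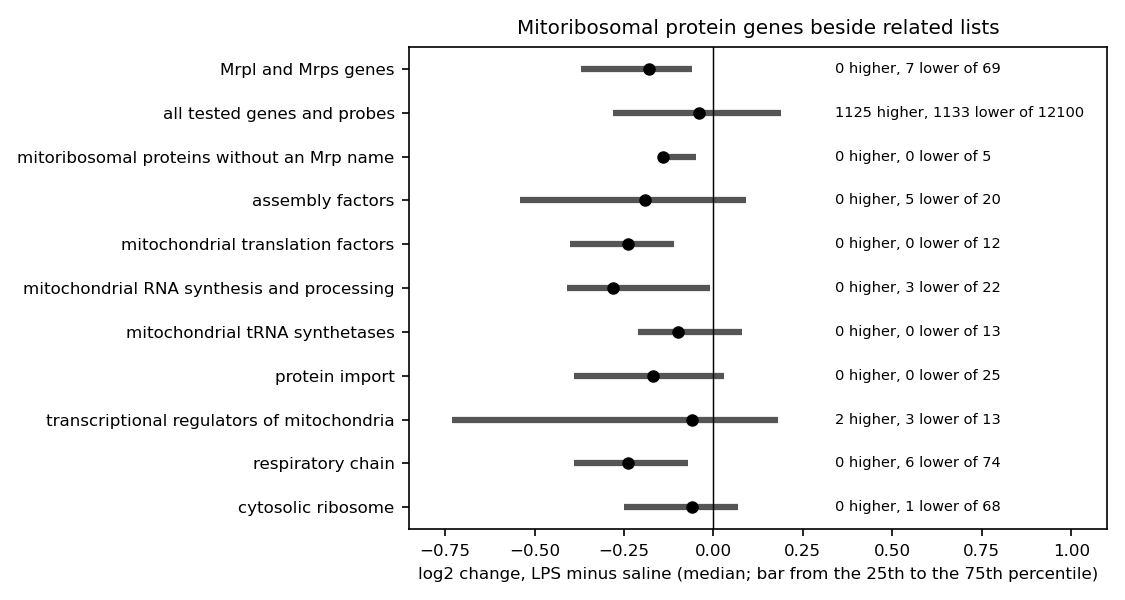
Median log2 difference (LPS minus saline) of the mitoribosomal genes, of all tested features and of 9 related gene lists, with bars from the 25th to the 75th percentile over genes. Numbers at right give the genes called higher and lower. The mitoribosomal median of -0.18 lies between those of the cytosolic ribosome (-0.06) and the respiratory chain (-0.24).

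Markers of the cell types in a heart piece moved too, beside 9.36% of all features called lower and 9.3% called higher. All 11 tested cardiomyocyte markers were above background on every array and below 0, none passed the test, and their median was -0.33. Their summed intensity ran from 227433 to 289240 arbitrary units on LPS arrays and from 288642 to 370943 on saline arrays. The spots of 3 of these markers were saturated on up to 2 arrays, and without them the sums were 119846 to 170835 against 162714 to 200691. The ranges of the groups overlapped both with and without them. Of 5 tested neutrophil markers of 12 listed, 4 were higher, with sums of 1796 to 2392 against 360 to 858, and Csf3r was above background on no saline array. Of 10 endothelial markers 3 were lower (8010 to 13469 against 12992 to 17927), and of 5 monocyte and macrophage markers 2 were lower (6508 to 7697 against 8133 to 9530). Of 7 fibroblast markers 1 was higher and 2 lower, with sums of 21607 to 26554 against 16805 to 21544. Their median was -0.45 with 6 of 7 below 0, and the sums rest on Dcn, the 1 that was higher. Without Dcn they were 2086 to 3677 against 3303 to 6458. The part of cell makeup in the mitoribosomal differences was not tested.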

How the data were processed

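Scanner files of 8 arrays (4 LPS, 4 saline, each from a separate mouse) held spot intensity at 635 nm as deposited, from GenePix Pro 4.1.1.4 at a gain of 650 and 5 µm pixels, with no normalization, per the file headers. Bad spots were left out. Median spot and local background intensity were corrected with normexp (offset 50), log2-transformed and quantile-normalized in limma 3.58.1 under R 4.3.3. A probe was above background where its signal exceeded the 95th percentile of the array's 94 negative-control spots. Probes above it on at least 4 arrays were kept (14914), and the brightest kept probe stood for its gene. RefSeq accessions were matched to symbols through the RefSeq table of GRCm38.p6, and 23071 probes matched 1 gene.

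LPS was compared with saline by limma (lmFit, eBayes) over 12100 genes and unnamed probes, two-sided, with an adjusted p threshold of 0.05, and intervals are at 95%. The number of arrays limits the precision. On data simulated for this comparison (12100 features, 200 changed at each fold), 24.8% of 1.5-fold, 70.1% of 2-fold and 96.1% of 4-fold changes were recovered. The real comparison called far more features, 1133 lower and 1125 higher. The adjusted p depends on how many features change, so these rates need not hold for it. The median standard error of the mitoribosomal genes was 0.17 on the log2 scale. Between 37.3% and 46.9% of gene probes were above background on an array. The authors' deposited value table, on a log2 scale with its shift and centring unknown, was used only for the mitochondria-encoded messengers in the closing section.

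The members and gene lists were chosen with earlier results of these data known. Named genes were those passing the test, the 6 highest and 6 lowest differences and genes whose probes differed in sign or by over 0.5, and in the related lists up to 3 called genes a direction. A planned naming of the brightest and dimmest genes was dropped, since levels of different probes are not comparable. Alternatives covered background, normalization, filter, probe choice, fit, blocks and left-out arrays.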

Additional observations from a re-analysis of the deposited data

Results flagged for a closer look

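The level of Mrpl47 on LPS array 1 stood apart from its group. It was 8.77 in normalized log2 intensity, against 8.96 to 8.98 on the other LPS arrays, and its gap to the nearest of them was 0.915 of the group's range, above Dixon's 95% critical value for 4 samples. The gap is small in size, and 34 groups of 4 arrays were tested in this way, of which chance alone marks about 1 in 20. The log2 difference of Mrpl47 was -0.50 without LPS array 1 (adjusted p = 0.0737 in limma) and -0.54 with it.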

How the results depend on the processing

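Of the mitoribosomal genes, 7 were lower with LPS as reported. That count became 4 with plain local background subtraction, cyclic loess, scan day as a block and the replicate number as a block (replicate block). The genes counted were not always drawn from the 7, and those with the replicate block included Mrpl30. The count became 14 with mean spot brightness, where 13.9% of the table was lower and Mrps27 was not called. It became 0 within the first scan day, with slide series as a block and within the arrays without the redip mark. Each of these had fewer arrays or degrees of freedom. Leaving out 1 array gave 3 to 9: 3 without LPS array 2, LPS array 4 or saline array 1, 4 without LPS array 1 or saline array 2, and 9 without LPS array 3. The count of 0 higher became 1 (Mrpl17) with cyclic loess, and 0 to 1 on leaving out an array, the 1 arising without saline array 3. The median difference of -0.18 became -0.60 with median scaling over all gene probes, where that of all features became -0.31 and the whole table held 448 higher and 1462 lower calls against 1125 and 1133. It became -0.26 with median scaling over the tested probes, -0.12 within the first scan day and -0.27 with slide series as a block, and lay from -0.22 to -0.18 without 1 array. Same-numbered hearts showed no clear joint deviation (correlations from -0.14 to 0.09, each heart's own number the best partner for 2 of 4). These 4 correlations cannot exclude a pairing by number. With the replicate number as a block 1967 features of the whole table were called, with 1018 higher and 949 lower.

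Among 17 named genes under 27 alternatives each, 364 values kept direction and side of the threshold, 70 lost the call and 9 gained it. The sign turned 16 times, never for a called gene. With median scaling over all gene probes it turned for Mrpl24 (-0.28), Mrpl52 (-0.25), Mrps10 (-0.25), Mrps18b (-0.08) and Mrps2 (-0.03), and with mean spot brightness for Mrpl24 (-0.17) and Mrps2 (-0.16). Mrpl24 also stood at -0.09 within the first scan day, -0.06 with slide series as a block, -0.06 within the arrays without the redip mark and lay from -0.02 (without saline replicate 2) to 0.29 on leaving out 1 array, and Mrps18b at -0.09 without the redip mark. Mrps12 turned to 0.03 with cyclic loess, 0.06 with the mean of its probes and 0.02 without LPS replicate 1, and Mrpl51 to 0.04 within the arrays with the mark. The cause of these shifts was not tested. Median signals over background ran from 12 to 32 per array, and 6 genes under the background limit were not tested.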

Other observations

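The 13 proteins that the mitoribosome makes are encoded by mitochondrial DNA. Probes for their genes stood in the authors' deposited value table (34945 probes, log2 values with column medians from 3.91 to 4.25) and were read there. None of its identifiers is shared with the scanner files (0). Its values above each array's floor are log2 of whole numbers (100% of the low values, within a tolerance of 0.05), shifted by an amount per array whose basis is not known. Between 6 and 10 of the 13 probes stood at the array's ceiling, so most carry only a lower bound. Of the others, ND3, a subunit of complex I, read 13.40, 12.96, 12.41 and 13.24 in LPS hearts 1 to 4, and saline hearts 1 to 4 read 12.88, 13.15, 13.27 and 13.20. ND4L, another subunit of complex I, read 14.41, 14.44, 13.88 and 14.54 with LPS and 14.74, 14.89, 14.35 and 14.42 with saline. ND6, the complex I subunit encoded on the other strand, read 6.61, 5.82, 5.60 and 5.67 with LPS and 5.55, 5.81, 5.70 and 5.44 with saline. The groups overlapped for all 3 probes, and no test was made on this table.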
